A study of Mus musculus with 11 samples.

Results

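Sox2, Trp63, Sp6, Cdh1, Epcam and Cldn4 are genes by which dental epithelium is recognized, and they are described here in developing maxillary molars of the mouse. They were taken by symbol, 6 of the 16755 genes listed, with no measured value in the rule, although earlier results of these data were known when they were chosen. The RNA came from whole germs at E14.5, with epithelium and mesenchyme together, and gave 4 libraries of wild type, 4 of Cilk1-/- and 3 of Cilk1-/-;PCS1-MRCS1 △/△ embryos, made to follow tooth patterning as Hedgehog signaling falls. All embryos had a C57BL/6 background, both sexes were used, and n = 6 was given for each library, without saying whether germs or embryos were counted. Cilk1-/- embryos lack Cilk1 exon 6 in all tissues, after EIIa-Cre acted in the germ line of a floxed parent. The third genotype, called the compound mutant, lacks this exon too and is in addition homozygous for a deletion that runs from PCS1 to MRCS1, a stretch with oral enhancers of Shh. It was made by crossing, and the deletion alone was not measured in these libraries. The transcript of Cilk1, listed under its older symbol Ick, had a mean of 3.53 ± 0.0751 (SD, n = 4) in wild type, 2.80 ± 0.0661 (n = 4) in Cilk1-/- and 2.64 ± 0.0317 (n = 3) in the compound mutant. The labels and this gene therefore go the same way, and no library of a mutant reached the lowest wild-type value.

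A tooth germ is an epithelium folded over a condensed mesenchyme, and the epithelium forms the enamel organ. Trp63 encodes p63, the transcription factor on which stratified epithelia depend. Sp6 encodes epiprofin, a zinc finger factor of the dental epithelium that is needed for enamel-forming cells, and Sox2 encodes a factor of the dental lamina, of epithelial progenitors and, elsewhere, of neural and sensory tissue. Cdh1 encodes E-cadherin of the adherens junction, Epcam a membrane protein that partners with claudins, and Cldn4 a claudin of the tight junction.

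Each value below is on the deposited log2 scale, where 1 was probably added to FPKM, a read count corrected for gene length and library size. A difference of 1 is thus about a doubling, and less than that in genes of low value. In a bulk sample, fewer cells of a type and less RNA per cell cannot be told apart. Genotypes were compared with limma in one fit of all genes and all 11 libraries, so each SE rests on a spread shared by all genotypes. Calls required an adjusted p under 0.05 (Benjamini-Hochberg over all genes) and a fold change of 1.5 or more.

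All 6 genes were well expressed in wild type. Epcam was the highest at 5.69 ± 0.121 (SD, n = 4), and its lowest library, 5.58, lay above every wild-type value of the other 5 genes, though only just above one Sp6 value of 5.57. Trp63 (5.02 ± 0.130), Sp6 (4.96 ± 0.423) and Cdh1 (4.95 ± 0.134) had overlapping values and no order among them. Sox2 (3.91 ± 0.223) and Cldn4 (3.56 ± 0.109) were the lowest and overlapped too. Turned back from the log2 scale, the wild-type means ran from 10.8 for Cldn4 to 50.9 for Epcam. Sp6 varied most between wild-type libraries, since replicate 3 stood at 5.57 and the other 3 lay between 4.62 and 4.89.

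Genes of both layers of the germ were expressed in every genotype. Of 40 other epithelial genes (keratins, desmosomal genes, Grhl and Ovol factors and others), all were listed, none was at 0 throughout a genotype, and their mean log2 value ranged from 3.79 to 3.97 in wild type, 3.69 to 3.99 in Cilk1-/- and 3.68 to 4.08 in the compound mutant. Their summed level, turned back from the log2 scale, was less steady. It was 1304 to 1593 in wild type and 1291 to 1658 in Cilk1-/-, but 1116, 1114 and 1697 in compound mutant replicates 1, 2 and 3. The 11 genes of dental mesenchyme, such as Msx1 and Col1a1, had a mean between 6.60 and 7.18 over all libraries. The summed level of 5 neuronal genes, turned back from the log2 scale, was 16.8 to 23.0 in wild type, 27.0 to 29.4 in Cilk1-/- and 31.8 to 188 in the compound mutant. On the first principal component of all genes, with 41.6% of the variance, compound mutant replicate 1 lay at 48.5 and the other libraries between -11.2 and 6.63. On the second component, with 21.8%, replicate 3 of the compound mutant was at -28.9 and the others from -11.8 to 13.5.

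In Cilk1-/-, 0 of the 6 genes were called against wild type, beside 0.370% of all genes (62 of 16755). None of them had an unadjusted p under 0.05 in any of the 3 comparisons, where 20.7% of all genes had one in Cilk1-/-. One of the 6, Trp63, had no overlap between Cilk1-/- and wild type, which was so for 20.9% of all genes.

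Trp63 was the gene that differed most in Cilk1-/-. Its values were 4.84, 5.14, 5.08 and 4.995 in the 4 wild-type libraries and 5.29, 5.26, 5.38 and 5.41 in the 4 Cilk1-/- libraries. Every Cilk1-/- value lay above every wild-type value, as in 10.2% of all genes. The difference of the means was 0.32 (SE 0.238), with a 95% interval from -0.21 to 0.85 and an adjusted p of 0.489 in limma. That SE is shared with the compound mutant, in which Trp63 ranged from 4.02 to 5.50. When limma was fitted on the 8 wild-type and Cilk1-/- libraries, the SE was 0.0651 and the adjusted p was 0.0156. Over the 21 other settings tried, the adjusted p ran from 0.0156 to 0.732, and none brought the difference to 1.5-fold.

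Sox2 and Sp6 showed no such separation. Sox2 measured 3.60, 3.90, 4.09 and 4.06 in wild type and 4.26, 4.05, 3.89 and 3.54 in Cilk1-/-, so that the highest and the lowest of these 8 values were both from Cilk1-/-. The difference of the means was 0.03 (SE 0.444), with a 95% interval from -0.95 to 1.01 and an adjusted p of 0.984 (limma). Sox2 lies within the long noncoding gene Sox2ot on the same strand, but no exon of one overlaps an exon of the other. For Sp6 the values were 4.62, 4.89, 5.57 and 4.75 in wild type and 4.79, 5.27, 4.65 and 5.32 in Cilk1-/-. The groups overlapped, with a difference of 0.05 (SE 0.393, adjusted p = 0.964 in limma). The intervals of both genes are wide enough to hold a change of 1.5-fold either way. Their width is shared with the compound mutant. The SD of Sox2 was 0.223 in wild type, 0.303 in Cilk1-/- and 1.36 in the compound mutant, and that of Sp6 0.423, 0.336 and 1.09.

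The adhesion genes were lower in Cilk1-/- replicate 1 than in any other library of these 2 genotypes. Cdh1 was 5.13, 4.81, 4.97 and 4.89 in wild type and 4.50, 5.09, 4.99 and 5.01 in Cilk1-/-. Epcam was 5.85, 5.62, 5.74 and 5.58 in wild type and 5.28, 5.72, 5.63 and 5.70 in Cilk1-/-. The first Cilk1-/- library was the lowest in both genes, and the first wild-type library the highest. Cldn4 followed the same order, with 3.72, 3.48, 3.49 and 3.57 in wild type and 3.27, 3.58, 3.58 and 3.35 in Cilk1-/-. The differences of the means were -0.05 (SE 0.155) for Cdh1, -0.11 (SE 0.156) for Epcam and -0.12 (SE 0.182) for Cldn4, with adjusted p of 0.889, 0.742 and 0.770 in limma. Their 95% intervals reached from -0.52 to 0.29 at the widest. A fall or a rise by 1.5-fold on the log2 scale used here lies outside them if the libraries are taken as independent.

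The opposite positions of the first wild-type and the first Cilk1-/- library were part of a wider pattern. Of the 24 pairs of a gene and a replicate number, 19 had the wild-type and the Cilk1-/- library on opposite sides of their own group means. Over all genes, the deviations of same-numbered libraries had Pearson correlations from -0.89 to -0.74. The means of the same-numbered pairs spanned less than the libraries did, from 0.0751 against 0.44 in Cldn4 to 0.405 against 0.95 in Sp6. Same-numbered libraries of these genotypes are therefore not independent in the deposited values, although the test treats them so. Whether a replicate term was taken out of the values before deposit is not given in the sources used here and was not tested. The SE and p-values hold only as far as the libraries vary independently. Opposite deviations of this kind tend to make them too small for Cilk1-/- against wild type, also in the fit of Trp63 without the compound mutant.

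Differences between the genes within a library take out what raises or lowers all epithelial RNA together. Over the 15 pairs of the 6 genes, 2 pairs had no overlap between Cilk1-/- and wild type, and both contained Trp63. Trp63 by itself had no overlap, as was so for 20.9% of all genes, so these pairs are not a separate result. The share over pairs of all genes was not calculated. Epcam stood above Trp63 by 0.47 to 1.003 in wild type and by -0.01 to 0.46 in Cilk1-/-, so the mean distance was smaller by 0.43. Cldn4 stood below Trp63 by 1.13 to 1.67 in wild type and by 1.68 to 2.06 in Cilk1-/-, a change of 0.44. An exact two-sided permutation test of 4 against 4 libraries gave p = 0.0286 for each, the smallest it allows, and 0.214 after adjustment over the 15 pairs. Epcam and Cdh1 kept their distance, with 0.69 to 0.80 in wild type and 0.63 to 0.78 in Cilk1-/- (exact p = 0.257, adjusted 0.771).

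**Figure D1:**
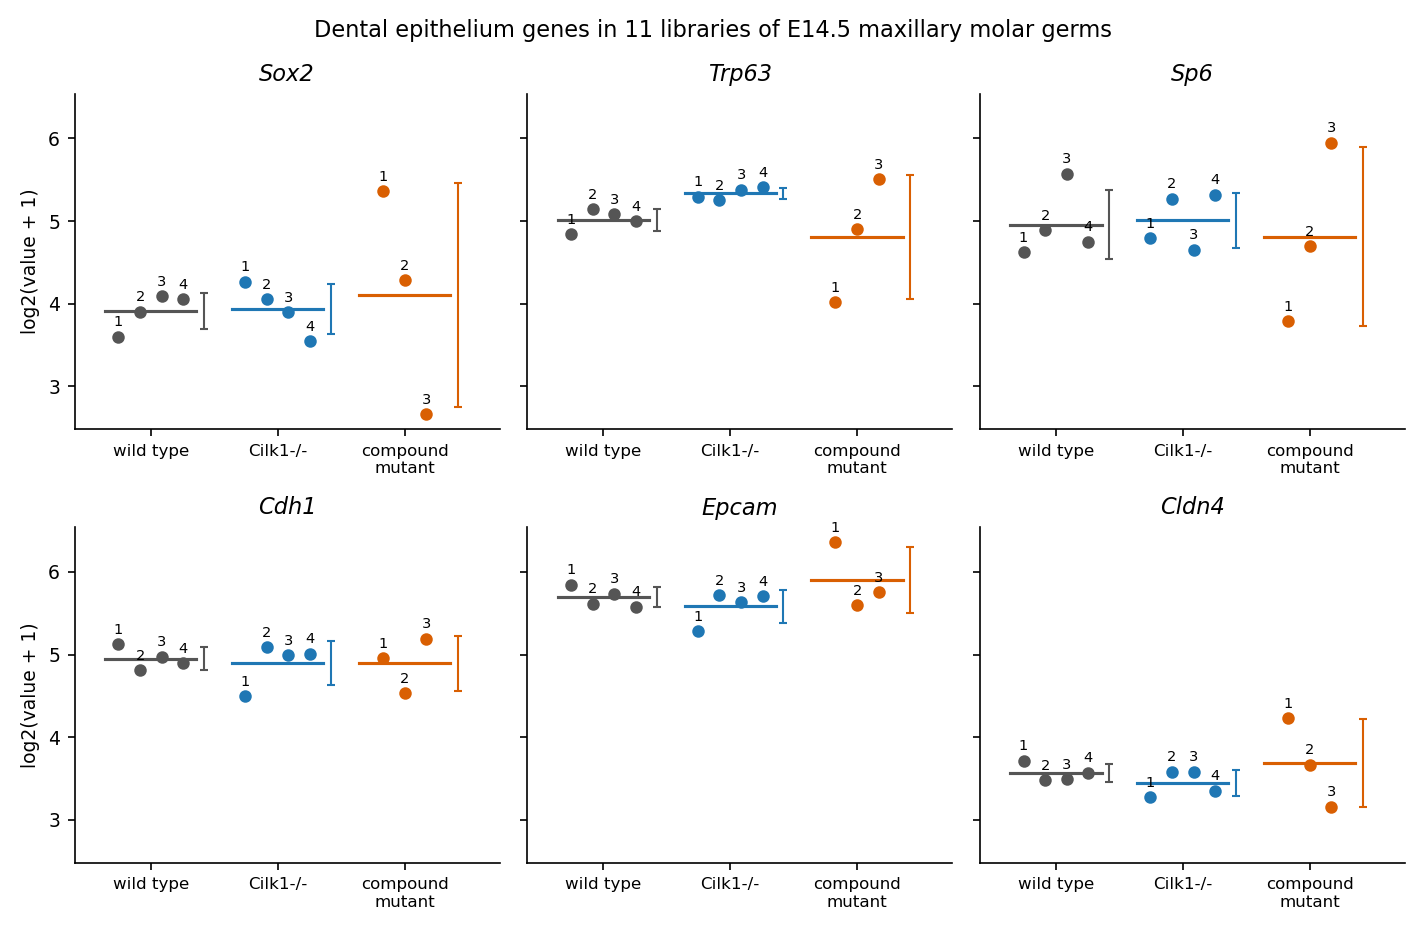
Log2(value + 1) of the 6 genes in each library, with the genotype on the x axis. Points are libraries with their replicate numbers, horizontal lines are group means and bars to the right are SD (n = 4, 4 and 3). In Trp63 all 4 Cilk1-/- points lie above the 4 wild-type points, and in Sox2 the compound mutant points run from 2.66 to 5.36.

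In the compound mutant, 0 of 6 genes were called against wild type, beside 1.25% of all genes (209 of 16755). Against Cilk1-/-, 0 of 6 were called, beside 0.543% (91 of 16755). In neither comparison did any of the 6 separate the genotypes, whereas 18.0% and 17.0% of all genes did. An unadjusted p under 0.05 was found in 26.7% and 23.2% of all genes, respectively. In the order of the samples, the 3 compound mutant libraries stand with WT replicate 4 and Cilk1-/- replicate 4, after all others. Genotype and any difference between such sets of libraries therefore largely coincide in both comparisons. The 3 compound mutant libraries lay far apart in several of these genes. The other 8 libraries were wide as well for Sp6, Sox2 and Cdh1, whose range over them was matched by 2.16%, 4.97% and 7.28% of all genes. These shares and those below are over genes of every level, and the same fold change gives a smaller range in genes of low value.

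Sox2 spread the most. It measured 5.36, 4.29 and 2.66 in compound mutant replicates 1, 2 and 3, whereas the 8 other libraries lay between 3.54 and 4.26. Replicates 1 and 2 were thus above all 8 and replicate 3 below all 8. The range was 2.70, which corresponds to 7.53-fold once turned back, and 0.418% of all genes had as large a range in these 3 libraries. The mean exceeded that of wild type by 0.19 (SE 0.479, adjusted p = 0.829, limma), and without replicate 1 the difference was -0.44. That SE uses the shared spread, whereas the SD of Sox2 was 1.36 (n = 3) in the compound mutant and 0.223 (n = 4) in wild type. It therefore understates the spread of the compound mutant.

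Sp6 and Trp63 ran in the other direction across the same libraries. Sp6 was 3.79, 4.69 and 5.95 in replicates 1, 2 and 3, a range of 2.16 that 0.740% of all genes matched. Trp63 was 4.02, 4.90 and 5.50, a range of 1.48 that 2.42% of all genes matched. For both genes replicate 1 was below and replicate 3 above all 8 libraries of the other genotypes. Against wild type the means differed by -0.15 for Sp6 (SE 0.424, adjusted p = 0.855) and by -0.21 for Trp63 (SE 0.257, adjusted p = 0.637, limma for both). Without replicate 1 these differences turned to 0.36 and 0.19. The SD in the compound mutant was 1.09 for Sp6 and 0.746 for Trp63 (n = 3), and the shared SE understate this spread too.

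Among the adhesion genes, Cldn4 followed Sox2. Its values of 4.23, 3.66 and 3.16 put replicate 1 above and replicate 3 below all 8 other libraries, with a range of 1.07 that 5.12% of all genes matched. Epcam was 6.36, 5.60 and 5.76, and only replicate 1 left the range of the 8. Cdh1 was the steadiest at 4.95, 4.53 and 5.19, with replicate 3 just above the 8. Its range of 0.66 was close to that of the 8 other libraries, 0.63, and 13.2% of all genes had a range as large. The mean differences from wild type were -0.06 for Cdh1 (SE 0.167), 0.21 for Epcam (SE 0.168) and 0.12 for Cldn4 (SE 0.197), with adjusted p of 0.851, 0.444 and 0.729 in limma. Without replicate 1 the difference was -0.02 for Epcam and -0.15 for Cldn4, and without replicate 2 it was 0.12 for Cdh1.

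Compared with Cilk1-/-, the compound mutant was lower in Trp63 by a mean difference of -0.53 (SE 0.257), with a 95% interval from -1.10 to 0.04 and an adjusted p of 0.246 in limma. This value rests on which libraries are used. Without compound mutant replicate 3 the difference was -0.87 and the adjusted p 0.0222, which is a call, and without replicate 1 the difference was -0.13. Over the 21 other settings the adjusted p ran from 0.0222 to 0.824, and no other setting gave a call for any of the 6 genes. Epcam was higher by 0.32 (SE 0.168, adjusted p = 0.276) and Cldn4 by 0.24 (SE 0.197, adjusted p = 0.495), and Sox2, Sp6 and Cdh1 differed by 0.17, -0.20 and -0.00467 (adjusted p between 0.818 and 0.994, limma for all).

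**Figure D2:**
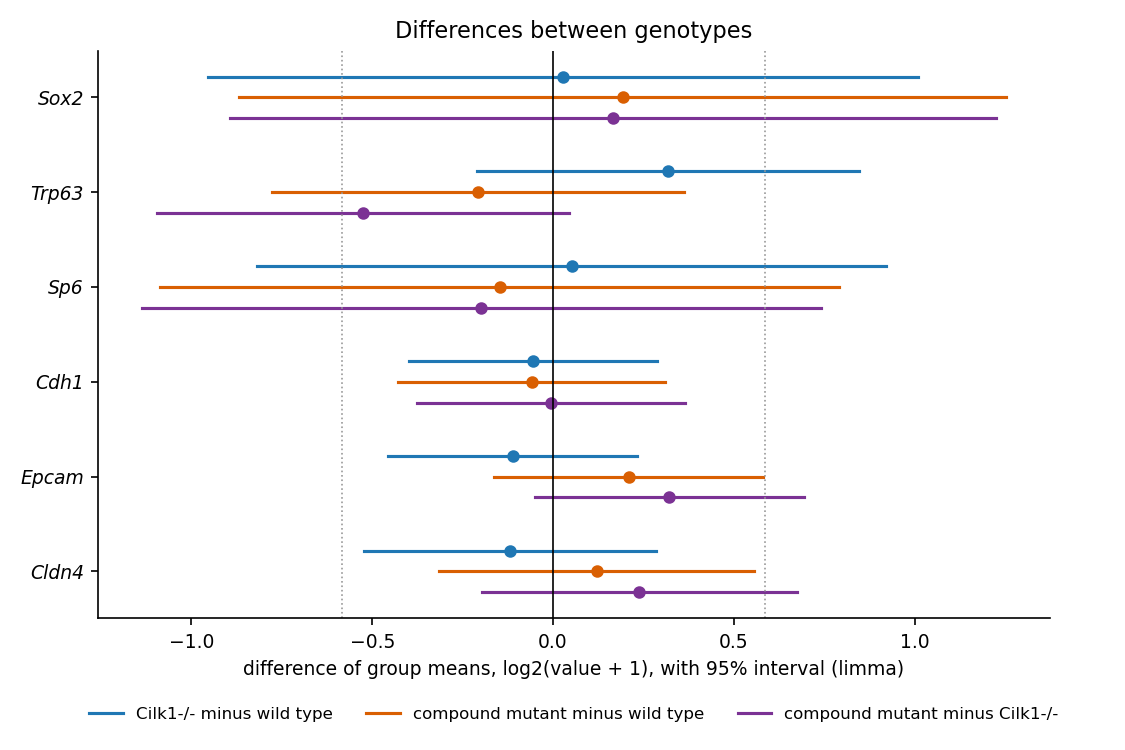
Differences of group means on the log2(value + 1) scale (x axis) for the 6 genes (y axis), as points with 95% intervals from limma. Colors are the 3 comparisons and dotted lines mark a change of 1.5-fold. All 18 intervals include 0, and those of Sox2, Sp6 and Trp63 are the widest. Each interval rests on a spread shared by all genotypes, which understates that of the compound mutant in Sox2, Sp6 and Trp63.

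The order of the genes within a compound mutant library differed from library to library. In replicate 1, Sox2 exceeded Trp63 by 1.34 and Sp6 by 1.57, and in each of the 10 other libraries Sox2 was below both. In replicate 3, Sox2 lay 2.84 below Trp63 and 3.29 below Sp6, farther than in any other library. Replicate 2 gave -0.61 and -0.41, both above the highest of the 8 libraries of the other genotypes. Epcam minus Cdh1 was 1.41, 1.06 and 0.57, against 0.63 to 0.80 in those 8 libraries. Sp6 minus Trp63 stayed between -0.23 and 0.45 in the compound mutant and thus within the span of the 8, which reached from -0.72 to 0.49.

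**Figure D3:**
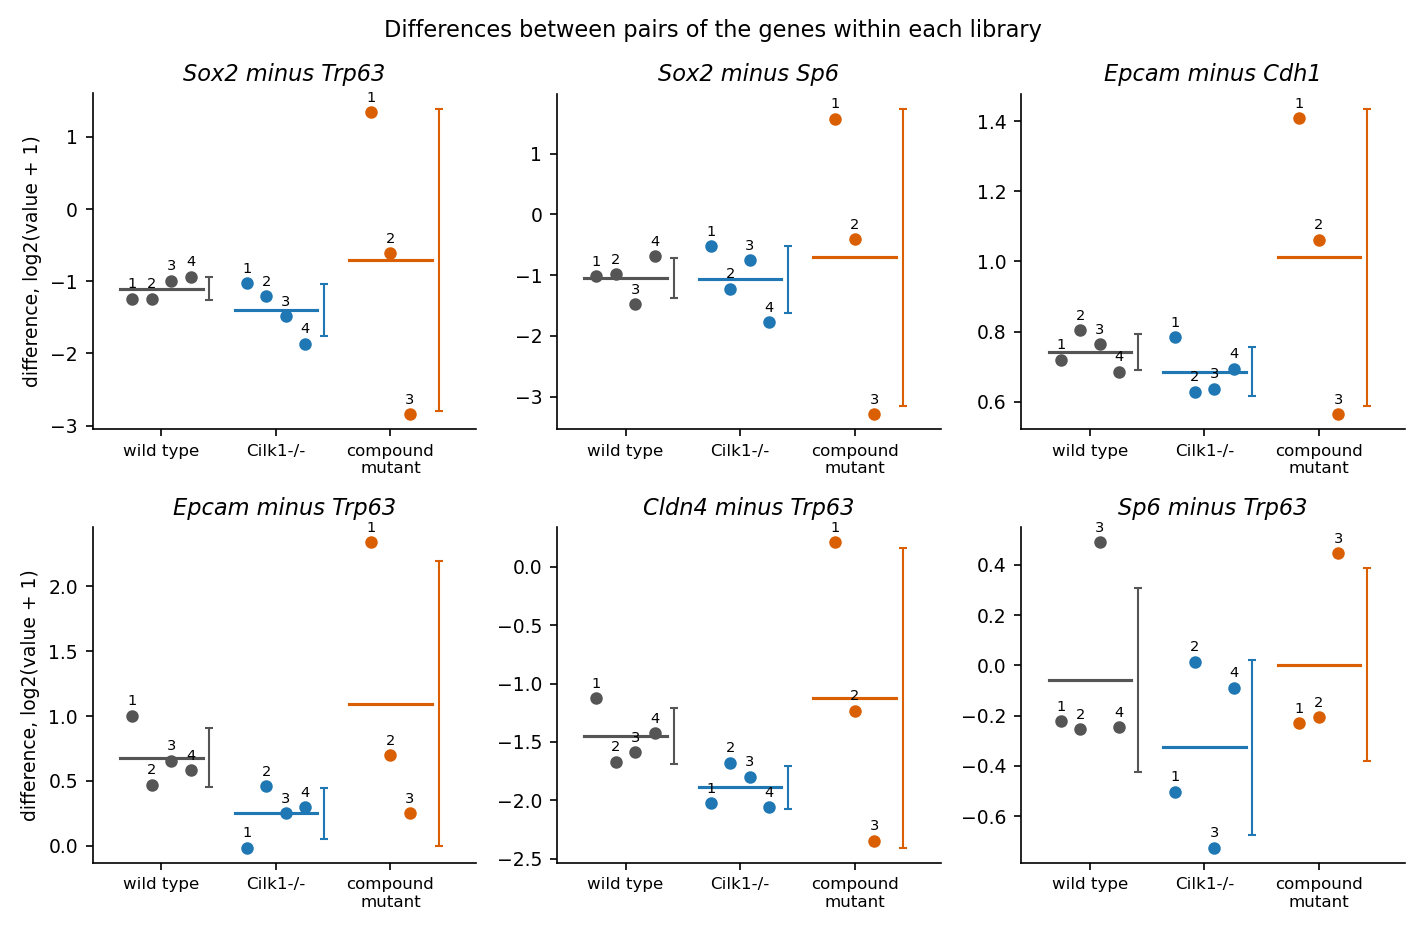
Differences between 6 pairs of the genes within each library (y axis, log2(value + 1), with its own scale in each panel) by genotype (x axis). Points are libraries with replicate numbers, lines are means and bars SD. Sox2 minus Trp63 is above 0 in compound mutant replicate 1 alone, and Epcam minus Trp63 is lower in all 4 Cilk1-/- libraries than in all 4 wild-type libraries.

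Genes of several other cell types were highest in 1 compound mutant library. In compound mutant replicate 1, all 5 neuronal, all 6 Schwann and glial, all 4 listed olfactory and 4 of 5 ciliated-cell genes were above the 8 libraries of the other genotypes, as were all 4 keratins of simple epithelium (Krt7, Krt8, Krt18, Krt19). Over all genes, 28.3% were above and 25.9% below in this library. Ciliated-cell genes were above in the other compound mutant libraries too, with 4 of 5 in replicate 2 and 3 of 5 in replicate 3. For neuronal genes it was 2 of 5 and 3 of 5, beside 18.5% and 21.8% of all genes. Of the glial, olfactory and simple-epithelium lists, at most 1 gene each was above in replicate 2 or 3. The neuronal sum was 188 there, 31.8 in replicate 2 and 59.5 in replicate 3. The olfactory sum was 41.2, 10.6 and 7.01, and the ciliated sum 34.7, 16.3 and 14.4, where the 8 others gave at most 12.2 and 18.7. Of the olfactory list, Neurog1 and Neurod1 are not among the 16755 genes. Foxj1, which drives the formation of motile cilia, was 3.71 in replicate 1 and at most 1.41 elsewhere, and the neuronal RNA-binding gene Elavl3 was 3.92 there and at most 0.79 elsewhere. Sox2 was highest in the library in which these genes were highest, and Trp63 and Sp6 were lowest there. Replicate 3, with the lowest Sox2 value, had a higher neuronal sum than replicate 2. The part of these cell types in the results was not tested. Between genotypes, 1 of 5 neuronal genes was called, Tubb3, higher in the compound mutant than in wild type by 1.503 (adjusted p = 0.0268, limma), a call lost without WT replicate 1, 2 or 4 (adjusted p up to 0.0820). Of 5 skeletal muscle genes, Actc1 and Acta1 were called lower in the compound mutant than in Cilk1-/- by differences of -2.35 and -1.71 (adjusted p = 0.0223 and 0.0417, limma), and without Cilk1-/- replicate 4 both calls were lost (adjusted p = 0.0667 and 0.104). The Acta1 call was also lost without any other single library except WT replicate 3 and compound mutant replicate 3 (adjusted p up to 0.0893). Of the glial, olfactory, ciliated, keratinizing, simple-epithelium, endothelial, macrophage, erythroid and dental mesenchyme lists, 0 genes were called in any comparison.

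Other epithelial lists split in the same library. Over all genes, 18.5% were above and 20.9% below the 8 libraries in replicate 2, and 21.8% above and 24.5% below in replicate 3. Of the 40 broad epithelial genes, 18 were below and 15 above in replicate 1. In replicate 2, 14 of them were below and 3 above, and in replicate 3, 7 were below and 22 above. Of 17 listed dental epithelium regulators, 11 were below and 2 above the 8 libraries in compound mutant replicate 1, while 2 were below and 10 above in replicate 3. Among them, Shh, the ligand of the enamel knot, was 3.66, 4.02 and 6.51 in replicates 1, 2 and 3. Of 13 genes listed as targets of p63, 7 were below and 3 above in replicate 1, 5 below and 0 above in replicate 2, and 0 below and 9 above in replicate 3. Krt5, the basal keratin that p63 activates, measured 7.61, 8.22 and 9.18. Of 8 keratinization genes, 6 were below in replicate 1, 6 below in replicate 2 and 5 above in replicate 3. Dental mesenchyme genes were mostly lower in 2 libraries, with 8 of 11 below the 8 others in replicate 1 and 6 of 11 in replicate 3.

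Most claudins were high beside Cldn4 in compound mutant replicate 1. Of 13 listed relatives, 9 were above and 3 below the 8 other libraries there, 2 above and 1 below in replicate 2, and 2 above and 4 below in replicate 3. Cldn3, which like Cldn4 belongs to tight junctions of simple epithelia, was 4.50 in replicate 1 and at most 1.26 elsewhere. Cldn7, a direct partner of Epcam, was 4.68 in replicate 1 and between 1.65 and 2.44 in the 10 other libraries. Cldn1, the claudin of stratified epithelium, ran the other way with 2.19, 2.50 and 3.83. Of 7 Epcam partners, 5 were above the 8 others in replicate 1, 0 in replicate 2 and 4 in replicate 3.

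**Figure D4:**
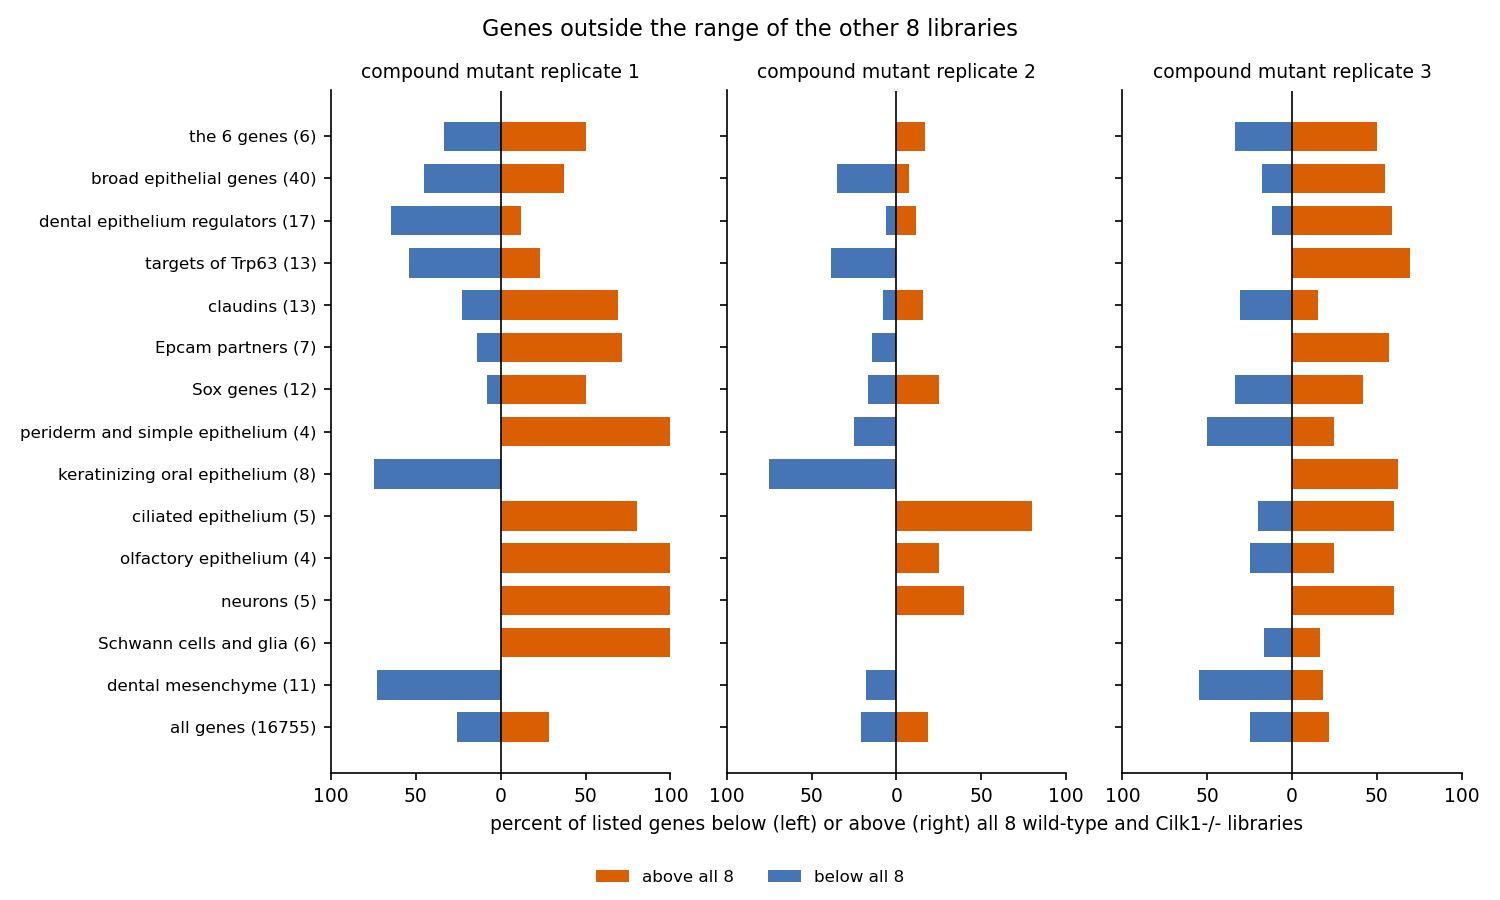
Percent of the genes of each list (y axis, number of genes in brackets) whose value in a compound mutant library lay below (left, blue) or above (right, orange) all 8 wild-type and Cilk1-/- libraries, with one panel for each of the 3 libraries. Neuronal, glial, olfactory and simple-epithelium genes lie above in replicate 1, and dental epithelium regulators lie mostly below in replicate 1 and above in replicate 3.

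Across genotypes, few epithelial list genes passed the test. Of the 40 broad epithelial genes, 1 was called higher and 0 lower in Cilk1-/-, 0 in either direction in the compound mutant against wild type, and 0 higher and 2 lower against Cilk1-/-. Their median differences were 0.03, -0.017 and -0.0016, and over all genes the median was 0.00320, -0.00164 and 0.00281. The gene called in Cilk1-/- was Krt15, a keratin of basal and progenitor cells, with 6.07, 6.17, 6.57 and 6.10 in wild type and 6.57, 6.94, 7.02 and 6.90 in Cilk1-/-. It rose by 0.63 (adjusted p = 0.0436, limma), although the lowest Cilk1-/- and the highest wild-type library touch. Leaving out any one of WT replicates 1, 2 and 4 or Cilk1-/- replicates 2, 3 and 4 ended this call, with adjusted p up to 0.139.

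In the compound mutant Krt15 was 5.78, 5.59 and 6.02, below every library of the other genotypes. The difference was -0.43 from wild type (adjusted p = 0.102) and -1.06 from Cilk1-/- (adjusted p = 0.00933, limma for both). The latter call held without each library in turn, and its adjusted p ran from 0.00300 to 0.499 over 21 settings. Lama3, which encodes a laminin chain of the epithelial basement membrane, was called lower than in Cilk1-/- as well, by a difference of -0.62 (adjusted p = 0.0270, limma). That call was lost without WT replicate 2, any of Cilk1-/- replicates 2, 3 and 4 or compound mutant replicate 1, with adjusted p up to 0.0904. Compound mutant replicate 1 was the lowest library for Lama3, with 1.73.

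Of the 17 dental epithelium regulators, 0 were called in Cilk1-/-, 1 was called higher in the compound mutant against wild type and 0 against Cilk1-/-. The median differences were 0.14, 0.07 and -0.22. The called gene was Bmp2, a growth factor of the enamel knot, with 2.10, 2.12, 2.34 and 2.12 in wild type and 2.77, 2.80 and 3.80 in the compound mutant. It rose by 0.95 (adjusted p = 0.0302, limma), and without any one of the 4 wild-type libraries the adjusted p lay between 0.0538 and 0.0869. Without compound mutant replicate 3 the difference was 0.61. Of the 13 p63 targets and of the 6 listed genes linked to Sp6 (3 of that list are not among the 16755), 0 were called in any comparison. The target medians were 0.11, -0.17 and -0.21, and those of the Sp6 list 0.15, -0.00300 and -0.12.

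Relatives of the transcription factors did not pass the test either. Of 12 listed Sox genes, 7 Sp genes and the p53 relatives Trp53 and Trp73, 0 were called in any comparison. Sox4, the highest Sox gene, stayed between 6.10 and 6.57 over all libraries, Sp3 between 4.88 and 5.22 and Trp53 between 6.13 and 6.54. These 3 genes spanned less than Sox2, Sp6 and Trp63 did, but not all relatives were as steady. In the compound mutant Sp9 ran from 0.26 to 2.70, a range of 2.44 beside 2.16 in Sp6. Sox9 ran from 3.36 to 5.01 there, a range of 1.64. Sox3, which acts beside Sox2 in neural tissue, was 1.77 in compound mutant replicate 1 and at most 0.22 in the 10 other libraries, and Sox21 was 2.80 there and at most 1.46 elsewhere. The Sox list had 6 of 12 genes above the 8 other libraries in that replicate and 1 below. In replicate 2, 3 were above and 2 below, and in replicate 3, where Sox2 was lowest, 5 were above and 4 below. Of all genes, 28.3%, 18.5% and 21.8% were above in replicates 1, 2 and 3.

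Partners of E-cadherin gave 1 call. Ctnnb1, the catenin that links cadherins to the cytoskeleton and carries Wnt signals, lay between 8.61 and 9.01 in all libraries, and 0 of 8 other cadherins were called. Of 6 catenins, 1 was called, Ctnna2 of neural tissue, which was higher in the compound mutant than in wild type by 0.70 (adjusted p = 0.0475, limma), with 2.68 in replicate 1. That call was lost without any of 10 of the 11 libraries. Cdh3, the placental cadherin of basal epithelium, was 4.07, 4.45 and 5.16 in the compound mutant and 4.29 to 4.65 in the 8 others. Of 13 claudins 0 were called. Cldn12 was higher than in Cilk1-/- by 0.31 (adjusted p = 0.0453, limma), under 1.5-fold, and that p stayed under 0.05 in 1 of 11 leave-one-out fits (up to 0.111). The claudin medians were -0.12, 0.16 and 0.31. Of the Epcam partners 0 of 7 were called, and Cd9 lay between 5.58 and 6.25.

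Snai1 was the clearest of the repressors of Cdh1. It encodes Snail, which binds the E-box and lowers E-cadherin in cells that leave an epithelium. Its values were 4.54, 4.66, 4.68 and 4.73 in wild type, 4.16, 4.03, 4.07 and 3.96 in Cilk1-/- and 4.69, 4.48 and 4.53 in the compound mutant. The Cilk1-/- libraries did not overlap with either of the others. Snai1 fell by 0.60 on the log2 scale in Cilk1-/- (adjusted p = 0.00306, limma), and the compound mutant was higher than Cilk1-/- by 0.51 (adjusted p = 0.00915), under 1.5-fold. Without WT replicate 4 or Cilk1-/- replicate 4 the differences were -0.57 and -0.57, just under 1.5-fold, with adjusted p of 0.0183 and 0.0160. The adjusted p was 0.0529 with the replicate number as a block and ran from 0.000934 to 0.109 over 21 settings. Zeb2, another E-box repressor, was lower in the compound mutant than in Cilk1-/- by a difference of -0.54 (adjusted p = 0.0283, limma), also under 1.5-fold, with an adjusted p under 0.05 in 6 of 11 leave-one-out fits (up to 0.0906). Of the 7 repressors, 0 were called higher and 1 lower in Cilk1-/-, and 0 in the other comparisons. Cdh1 itself differed by -0.05 in Cilk1-/-, with an interval from -0.40 to 0.29.

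The promoters of Epcam and Cldn4 are shown because, of the 3 members with an entry, these 2 hold the E-box of Snail and Zeb factors. Both genes were also above the 8 other libraries in compound mutant replicate 1, as were 28.3% of all genes. Since they were chosen for the E-box, its presence in both is not a result, and its part in their values was not tested. The windows are the 250 bases before the RefSeq start on GRCm38.p6, written 5′ to 3′ on the strand of the gene, with each E-box (CAGGTG or CACCTG) in capitals. The Epcam window is chr17:87635729-87635978 on the plus strand and the Cldn4 window chr5:134946935-134947184 on the minus strand.
Epcam: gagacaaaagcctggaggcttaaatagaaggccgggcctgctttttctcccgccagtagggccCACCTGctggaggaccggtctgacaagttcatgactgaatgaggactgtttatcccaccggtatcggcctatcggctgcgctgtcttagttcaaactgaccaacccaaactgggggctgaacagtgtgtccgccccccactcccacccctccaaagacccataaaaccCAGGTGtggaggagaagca
Cldn4: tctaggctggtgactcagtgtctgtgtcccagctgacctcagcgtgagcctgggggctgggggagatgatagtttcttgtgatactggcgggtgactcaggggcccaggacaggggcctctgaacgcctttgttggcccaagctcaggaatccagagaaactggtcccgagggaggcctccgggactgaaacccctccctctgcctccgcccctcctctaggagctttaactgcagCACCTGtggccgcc
The E-boxes of Epcam end 182 and 14 bases before the start, and that of Cldn4 9 bases before it. Of 32851 RefSeq promoters of this length, 17.2% hold an E-box, and of the 3 members with an entry, 2 do. The Sox2 window holds none. The GC box (GGGCGG or CCGCCC) was in 3 of 3 and in 32.7% of all promoters, the Grhl palindrome AACCGGTT in 0 of 3 and 0.116%, and the TATA box (TATAAA or TTTATA) in 0 of 3 and 12.4%. All motifs were read on both strands. Trp63, Sp6 and Cdh1 had no entry.

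In the GENCODE annotation of GRCm38, the 6 genes lie on 6 chromosomes. Sox2 is at chr3:34650405-34652461, Trp63 at chr16:25683763-25892102, Sp6 at chr11:97013394-97024734, Cdh1 at chr8:106603351-106670246 and Epcam at chr17:87635979-87651129, all on the plus strand. Cldn4 is at chr5:134945119-134946934 on the minus strand. Trp63 has 8 annotated protein-coding transcripts, and the gene-level values do not separate its long and short forms. Sp6 overlaps the noncoding gene Gm11532 on the other strand. Whether reads were counted by strand is not given in the sources used here, so reads of the 2 genes may not be told apart.

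For each of the 6 genes, a few others had nearly the same profile over the 11 libraries. Among the genes reported here, Trp63 was most like Plek2 (Pearson r = 0.971 over 11 libraries and 0.825 over the 8 without the compound mutant), then Trim29 (0.967) and Arhgap42 (0.965). Plek2 was lowest in compound mutant replicate 1 (2.17) and highest in replicate 3 (3.14), as Trp63 was.

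Sp6 was most like the hyaluronan synthase gene Has3 (0.960, and 0.896 over the 8), then Sfrp5 (0.952) and Ap1s2 (0.950). The nearest gene to Sox2 was Sertad2 (0.973, but 0.786 over the 8), then Magee2 (0.964) and Tspyl5 (0.958). Epcam was closest to Apmap (0.987, and 0.963 over the 8), then Vsig10 and Slc9a8 (0.967 for each). The tight junction gene Cgn, which encodes cingulin, was closest to Cldn4 (0.967, and 0.899 over the 8), followed by Igsf8 (0.965) and Cldn8 (0.963). Cdh1 was closest to Tor3a (0.939, and 0.956 over the 8), then Tmem51 (0.937) and Phldb3 (0.924). These values describe the libraries, which share germs of mixed tissue and, in wild type and Cilk1-/-, the dependence between same-numbered libraries. No gene was near the mean of all 6 to this degree, and the closest, Epb4.1l4b, had 0.828, followed by Agpat3 (0.812) and Tmem79 (0.806).

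**Figure D5:**
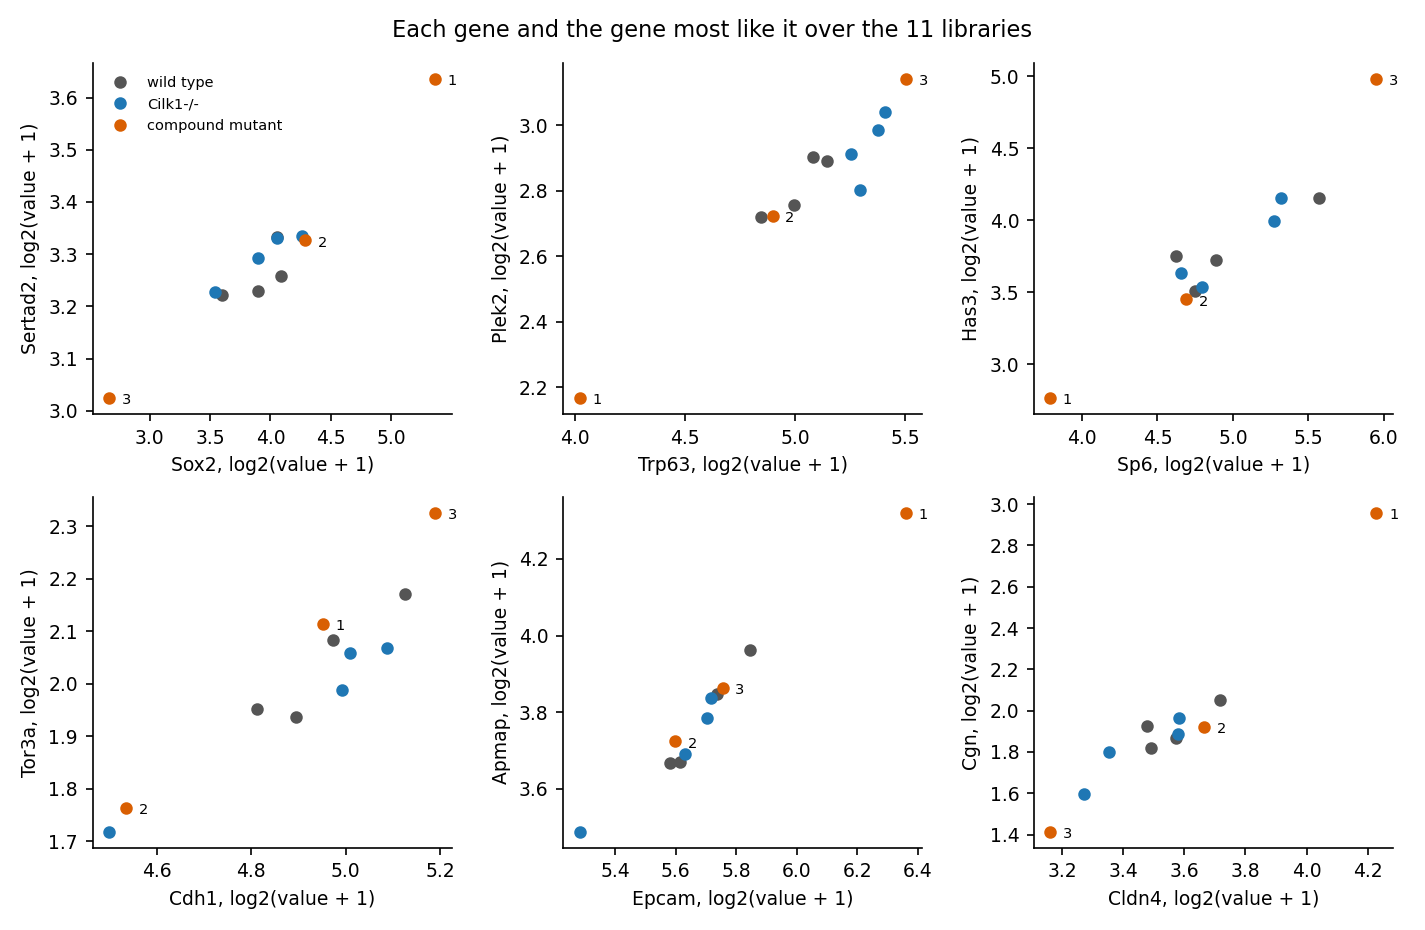
Log2(value + 1) of each of the 6 genes (x axis) and of the gene most like it, among those reported here, over the 11 libraries (y axis). Points are libraries, colors are genotypes, and the compound mutant libraries carry their replicate numbers. In Sox2 and Sp6 compound mutant replicates 1 and 3 lie at the ends, and in Trp63 the Cilk1-/- points lie to the right of the wild-type points.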

How the data were processed

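Maxillary molar tooth germs at E14.5 were profiled by RNA sequencing of poly-A RNA in 11 libraries. The authors mapped reads to mm10 with HISAT2 2.0.5, counted them with featureCounts 1.5.0-p3 and calculated FPKM. For 16755 genes the deposited table gives log2 values, apparently log2(value + 1). The step to log2 is not stated, 257 genes have a value below 0, and no counts were used here, so the depth is unknown and errors come from the variation among libraries. Columns of the authors' own comparisons were not used.

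Genotypes were compared with limma 3.58.1 in R 4.3.3 (lmFit, eBayes with trend and robust, no covariates), tested beforehand on simulated data. The simulated libraries varied independently, and each gene had the same spread in every genotype. They therefore cannot show how the fit behaves with the linked libraries and unequal spread seen here. Labels do not tie replicate numbers to litters, so p-values measure the spread between libraries. Pair differences used an exact permutation test in Python 3.11.15 (pandas 2.3.3, numpy 2.4.6, matplotlib 3.10.9). Members and gene lists were chosen with earlier results of these data known. Named genes were the 6 members, list genes with an adjusted p under 0.05 (otherwise the highest of a list), the 3 genes most correlated with each member among those with a mean of at least 1, the genes most like the mean of all 6, and relatives or partners of a member. A further 2 genes are not reported here and were left out of the lists. Foxj1, Elavl3, Krt7, Krt8 and Krt19 were named after their values were seen. Alternatives were a fit of 2 genotypes, a replicate block, the set of libraries (from the wording of the protocol text) and other eBayes options. Further ones were a filter, a pseudocount of 0.1, quantile normalization, median centring, an epithelial covariate, other thresholds and leaving out each library. For genes other than the members all of these alternatives were chosen after seeing the data.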

Additional observations from a re-analysis of the deposited data

Results flagged for a closer look

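In 32 groups of 4 libraries (16 genes with a named result, in wild type and Cilk1-/-), the gap of the most distant library to the next was compared with the whole range of the group, at Dixon's critical value of 0.829. Chance puts about 1 in 20 groups past it, and 3 of 32 were past it. Cdh1 in Cilk1-/- replicate 1 (4.50, with the other 3 between 4.99 and 5.09) had a ratio of 0.840. Lama3 had a ratio of 0.841 in that same library, the lowest of its group. Bmp2 in wild-type replicate 3 (2.34, with the others between 2.10 and 2.12) had a ratio of 0.913. The compound mutant has 3 libraries and was not examined in this way.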

How the results depend on the processing

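The 6 genes had 18 differences between genotypes. Under the 10 settings other than leaving out a library, 179 of 180 values kept their direction and their side of the threshold, and the 1 exception was Cdh1, compound mutant against Cilk1-/-, at 0.0046 with the replicate block. Of 198 leave-one-out values, 174 were unchanged in both respects, 23 turned their sign and 1 became a call. For the results that turned, leaving out a library gave, in Cilk1-/- against wild type, -0.081 to 0.16 (Sox2), -0.060 to 0.26 (Sp6) and -0.12 to 0.078 (Cdh1). Against wild type the compound mutant gave -0.44 to 0.91 (Sox2), -0.56 to 0.19 (Trp63), -0.72 to 0.36 (Sp6), -0.21 to 0.12 (Cdh1), -0.018 to 0.36 (Epcam) and -0.15 to 0.38 (Cldn4). Against Cilk1-/- it gave -0.46 to 0.89 (Sox2), -0.77 to 0.31 (Sp6), -0.15 to 0.17 (Cdh1) and -0.033 to 0.50 (Cldn4). The number of the 6 genes called stayed at 0, apart from 1 (Trp63) for the compound mutant against Cilk1-/- without compound mutant replicate 3, a range of 0 to 1.

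Counts over all genes moved more, and the cause was not tested. The order here is Cilk1-/- against wild type, the compound mutant against wild type and the compound mutant against Cilk1-/-. The 62, 209 and 91 genes became 130, 34 and 1 in fits of 2 genotypes. With the set of libraries as a term they became 37, 18 and 1. A pseudocount of 0.1 gave 123, 547 and 294, and no fold threshold gave 409, 1102 and 558. At an unadjusted p under 0.05 with the fold threshold kept, the counts were 126, 499 and 350. With the epithelial covariate the last was 141. Leaving out a library gave 15 to 95, 80 to 671 and 36 to 360 genes.

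With the replicate number as a block, 4, 26 and 2 genes were called, and 4, 0 and 0 when the compound mutant was placed in block 4, while 0 of the 6 genes were called either way. The main fit did not use the number as a pairing. The deviations of same-numbered wild-type and Cilk1-/- libraries correlated between -0.89 and -0.74 over all genes, so these libraries are not independent. The calls in Cilk1-/- are therefore less sure than their p-values in the main fit say. The block gave adjusted p of 0.0529 for Snai1 and 0.0846 for Krt15 in Cilk1-/- (limma). The unknown depth sets no floor for low values.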
